A study of Mus musculus with 2 samples.

Results

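Transforming growth factor beta (TGF-beta) signalling was described through 9 genes: the ligands Tgfb1, Tgfb2 and Tgfb3, the receptors Tgfbr1, Tgfbr2 and Tgfbr3, the latent TGF-beta binding protein genes Ltbp1 and Ltbp2, and Tgfbi, a secreted matrix protein named for its induction by TGF-beta. They were taken by symbol from the 32285 genes of the deposited matrices, and all 9 were found. The cells came from the Achilles tendon enthesis, the attachment of tendon to bone, in the SKG mouse, which carries a mutated Zap70 and is prone to autoimmune arthritis. Hindlimb unloading was modelled by tail suspension, in which a mouse is held so that its hindlimbs bear no weight. One droplet library (10x Genomics) was made from tail suspension and 1 from non-tail suspension, both from SKG mice. The sources used here do not state age, sex, duration of suspension, the number of animals behind a library or any induction of arthritis. With 1 library per condition no difference has a replicate check, so no test was made. Every interval is an exact 95% interval for counting error alone.

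All 3 TGF-beta ligands are secreted in a latent complex: the cleaved propeptide stays wrapped around the mature dimer, and a latent TGF-beta binding protein such as LTBP1 ties the complex to fibrillin and fibronectin in the matrix. LTBP2 sits on the same microfibrils but is known not to bind latent TGF-beta. Integrins, thrombospondin and proteases free the ligand, which binds the type II receptor TGFBR2, and this phosphorylates the type I receptor TGFBR1, which phosphorylates SMAD2 and SMAD3. The co-receptor TGFBR3, betaglycan, presents ligand and is needed above all for TGF-beta 2, which binds TGFBR2 weakly by itself. In tendon, TGF-beta signalling is known for inducing Scleraxis and for recruiting and keeping tendon progenitors, and it is released from matrix under load.

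Tgfb1 was high in monocyte-, macrophage-, T cell- and B cell-like cells and Tgfb2 in fibroblast-like and tenocyte-like cells, so the 250 bases before their RefSeq starts are shown, with those of Ltbp1, whose level followed that of Tgfb2 across clusters (Pearson r = 0.85 over 33 clusters, from the Tgfb2 and Ltbp1 levels). Of the 9 genes, 7 had an entry among the RefSeq promoters (build GRCm38.p6). Tgfb3 and Tgfbr3 are named only. The windows lie at chr7:25686752-25687001 (plus strand), chr1:186705990-186706239 (minus strand) and chr17:75005279-75005528 (plus strand), and are written 5′ to 3′ along the gene. Capitals mark matches on either strand to the GC box GGGCGG, the TATA box core TATAAA, the E-box CACGTG, the cyclic AMP response element TGACGTCA or the AP-1 site TGANTCA, which do not overlap one another here.
Tgfb1: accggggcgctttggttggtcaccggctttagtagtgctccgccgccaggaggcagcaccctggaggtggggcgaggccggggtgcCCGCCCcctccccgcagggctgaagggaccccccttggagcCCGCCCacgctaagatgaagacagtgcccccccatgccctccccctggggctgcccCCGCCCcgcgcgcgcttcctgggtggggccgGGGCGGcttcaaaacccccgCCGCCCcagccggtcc
Tgfb2: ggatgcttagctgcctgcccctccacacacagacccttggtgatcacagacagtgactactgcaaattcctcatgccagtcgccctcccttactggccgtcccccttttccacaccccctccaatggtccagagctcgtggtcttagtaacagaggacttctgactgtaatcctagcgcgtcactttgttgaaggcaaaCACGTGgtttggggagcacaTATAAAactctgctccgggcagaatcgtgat
Ltbp1: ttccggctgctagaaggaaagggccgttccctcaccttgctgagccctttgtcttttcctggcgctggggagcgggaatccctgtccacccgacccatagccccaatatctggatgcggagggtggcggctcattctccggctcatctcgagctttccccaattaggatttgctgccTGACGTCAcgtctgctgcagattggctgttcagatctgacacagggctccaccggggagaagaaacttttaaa

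On GRCm38 (GENCODE annotation) the ligand genes lie at chr7:25687002-25705077 on the plus strand (Tgfb1), chr1:186622792-186705989 on the minus strand (Tgfb2) and chr12:86056745-86079041 on the minus strand (Tgfb3). The receptor genes lie at chr4:47353222-47414931 on the plus strand (Tgfbr1), chr9:116084293-116175360 on the minus strand (Tgfbr2) and chr5:107106570-107289629 on the minus strand (Tgfbr3). Ltbp1 lies at chr17:75005568-75392512 on the plus strand, Ltbp2 at chr12:84783212-84876532 on the minus strand and Tgfbi at chr13:56609523-56639562 on the plus strand. All 9 are protein-coding.

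The Tgfb1 window held 5 GC boxes and no TATA box core, and its GC content was 75.2%, against a median of 52.4% over all 32851 RefSeq windows. In the Tgfb2 window, at 53.6% GC, a TATA box core began 31 bases and an E-box 51 bases before the start, and there was no GC box. For Ltbp1, whose window had 56.8% GC, the 1 match was a cyclic AMP response element that began 73 bases before the start. RefSeq gives Ltbp1 a second start, whose window at chr17:75178531-75178780 (plus strand, 50.8% GC) held none of the motifs; which start these cells used was not tested. Over all windows of that length 32.7% held a GC box, 12.4% a TATA box core, 6.02% an E-box, 1.55% the cyclic AMP response element and 6.75% an AP-1 site. A match describes the letters and does not show that a factor binds there.

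The tail suspension library gave 13991 kept cells with 156480780 UMIs (unique molecular identifiers, each counting 1 captured transcript) and the non-tail suspension library 10819 cells with 118086547 UMIs, with medians of 8363 and 4653 UMIs per cell and mitochondrial medians of 3.102% and 1.464%. The libraries shared 47 barcode sequences, 0.302% and 0.411% of their barcodes. Levels are CPM, the UMIs of a gene per 1000000 UMIs of the class. Clusters named fibroblast-like, tenocyte-like or sheath or lining fibroblast-like made up the fibroblast lineage, 6368 cells (45.5%) with tail suspension and 1427 (13.2%) without. All 9 tenocyte markers and all 16 fibroblast markers were higher in their class than in the rest in both libraries, and 7 of 8 sheath markers with tail suspension and 8 of 8 without. The same lists named the clusters, so this outcome was largely set by the naming and is no separate check. Different clusters filled the lineage: cluster 3, a tenocyte-like cluster led by Col1a2, Col1a1 and Thbs4, held 2.29% of its cells with tail suspension and 62.0% without, and cluster 2, a fibroblast-like cluster led by Ptx3 and Apod, held 41.3% and 13.6%. Neutrophil-like cells were 10.2% of kept cells with tail suspension and 49.0% without. Within the lineage the 16 neutrophil markers summed to 1157 and 1526 CPM, the 13 macrophage markers to 869 and 894 CPM, the 11 chondrocyte markers to 58.3 and 420 CPM and the 7 erythroid markers to 320 and 2.48 CPM, with tail suspension and without, and their part in the results was not tested.

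The ligands divided by cell class. Tgfb1, the ligand of immune regulation and fibrosis, was high in monocyte-, macrophage-, T cell- and B cell-like cells and endothelium and lower in the fibroblast lineage and in neutrophil-like cells, whereas Tgfb2 and Tgfb3, the ligands best known from mesenchyme and tendon development, were high in tenocyte-like and fibroblast-like cells and low in monocyte-, macrophage-, T cell- and B cell-like cells. Tgfb1 stood at 203 CPM (95% interval 193 to 215) in monocyte-like cells with tail suspension and 219 CPM (210 to 229) without. In macrophage-like cells it was 183 and 180 CPM, and in T cell-like cells 187 and 313 CPM. Neutrophil-like cells had only 41.0 CPM (36.8 to 45.7) with tail suspension and 43.4 CPM (40.4 to 46.6) without. Its level was 44.5 CPM (43.2 to 45.9) in the fibroblast lineage with tail suspension and 46.2 CPM (44.1 to 48.5) without. The highest class was lymphatic endothelial-like with tail suspension (216 CPM), whose interval overlapped that of monocyte-like cells, the next in order. Without suspension T cell-like cells were highest (313 CPM), next to B cell-like cells (300 CPM), again with overlapping intervals.

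**Figure D1:**
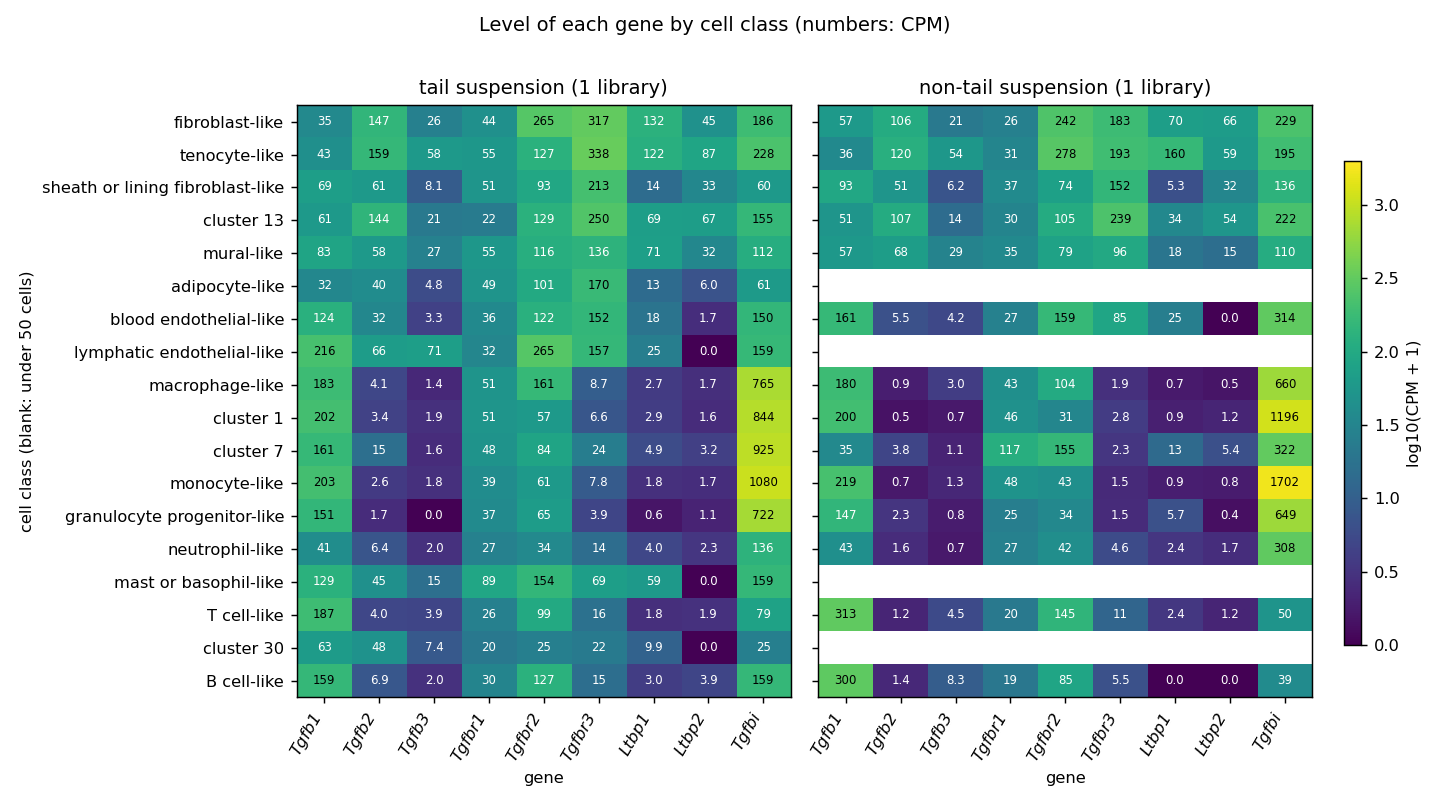
Levels of the 9 genes (columns) in each cell class (rows) with tail suspension on the left and non-tail suspension on the right; numbers are CPM and colour is log10 of CPM + 1, and a blank row has under 50 cells in that library. Tgfb1 and Tgfbi are bright in the macrophage- and monocyte-like rows, with Tgfbi at 1080 and 1702 CPM in monocyte-like cells, and Tgfb1 is dim in the neutrophil-like row. Tgfb2, Tgfbr3, Ltbp1 and Ltbp2 are brighter in the fibroblast-like and tenocyte-like rows than in the macrophage- and monocyte-like rows.

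Tgfb2 reached 159 CPM (150 to 168) in tenocyte-like cells with tail suspension and 120 CPM (116 to 125) without. Fibroblast-like cells had 147 and 106 CPM, and sheath or lining fibroblast-like cells 60.7 and 50.9 CPM. In the unnamed cluster 13, led by Mmp3, Cxcl5 and Col1a1, Tgfb2 was 144 CPM with tail suspension, within counting error of fibroblast-like cells, and 107 CPM without. Tgfb3 was 57.9 CPM in tenocyte-like cells with tail suspension and 54.3 CPM without, and 26.3 and 20.5 CPM in fibroblast-like cells. Mural-like cells, outside the lineage, had 27.4 and 29.3 CPM of Tgfb3, and sheath or lining fibroblast-like cells only 8.05 and 6.16 CPM. Lymphatic endothelial-like cells of the tail suspension library, 153 cells, had 70.6 CPM of Tgfb3 (55.2 to 89.1), an interval that overlapped that of tenocyte-like cells.

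B cell-like cells were taken as the class that should lack Tgfb2, Tgfb3, Ltbp1, Ltbp2 and Tgfbi, so that their UMIs of these genes show the level free RNA in the droplets could give. Tgfb2 was 6.90 CPM there with tail suspension and 1.38 CPM without, from 7 UMIs and 1 UMI. Tgfb3 had 2 and 6 UMIs (1.97 and 8.27 CPM), Ltbp1 3 and 0 UMIs and Ltbp2 4 and 0 UMIs. The 5.51% that the tail suspension level of Tgfb2 made of its lineage level equalled the 5.51% of Col1a1, the main fibroblast collagen, in the same cells. Without suspension these shares were 1.24% for Tgfb2 and 6.21% for Col1a1. For Tgfb3 the B cell-like level was 8.27% of the lineage level with tail suspension and 20.1% without, and in T cell-like cells 16.2% and 11.02%, beside 4.47% and 0.969% for Col1a1 in T cell-like cells. In macrophage-like cells Tgfb3 stood at 6.00% and 7.17% of its lineage level, from 18 and 54 UMIs, and Col1a1 at 2.19% and 0.653%. The part of free RNA in these low levels was not tested.

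Among the UMIs of the 3 ligands, Tgfb1 made up 97.1% (96.3 to 97.7) in macrophage-like cells with tail suspension and 97.9% (97.4 to 98.4) without, and 23.0% (22.4 to 23.6) and 23.3% (22.3 to 24.3) in the fibroblast lineage. The Tgfb3 share of the lineage was 12.3% (11.9 to 12.8) with tail suspension and 20.7% (19.8 to 21.7) without, and the Tgfb2 share 64.7% and 56.0%. Tgfb1 made up 50.2% of ligand UMIs (48.5 to 51.8) with tail suspension and 62.0% (56.8 to 67.0) without in sheath or lining fibroblast-like cells, 16.8% and 31.3% in fibroblast-like cells and 16.7% and 17.2% in tenocyte-like cells. Among the other lineage clusters with at least 50 cells in both libraries, the fibroblast-like cluster 9 came nearest to the sheath cells, at 27.2% and 41.2%. Outside the lineage the Tgfb1 share was 49.3% and 37.0% in mural-like cells. UMIs are not scaled for transcript length or capture, so these shares compare classes and not the amounts of the 3 proteins. Over all kept cells Tgfb1 made up 46.3% with tail suspension and 59.4% without.

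**Figure D2:**
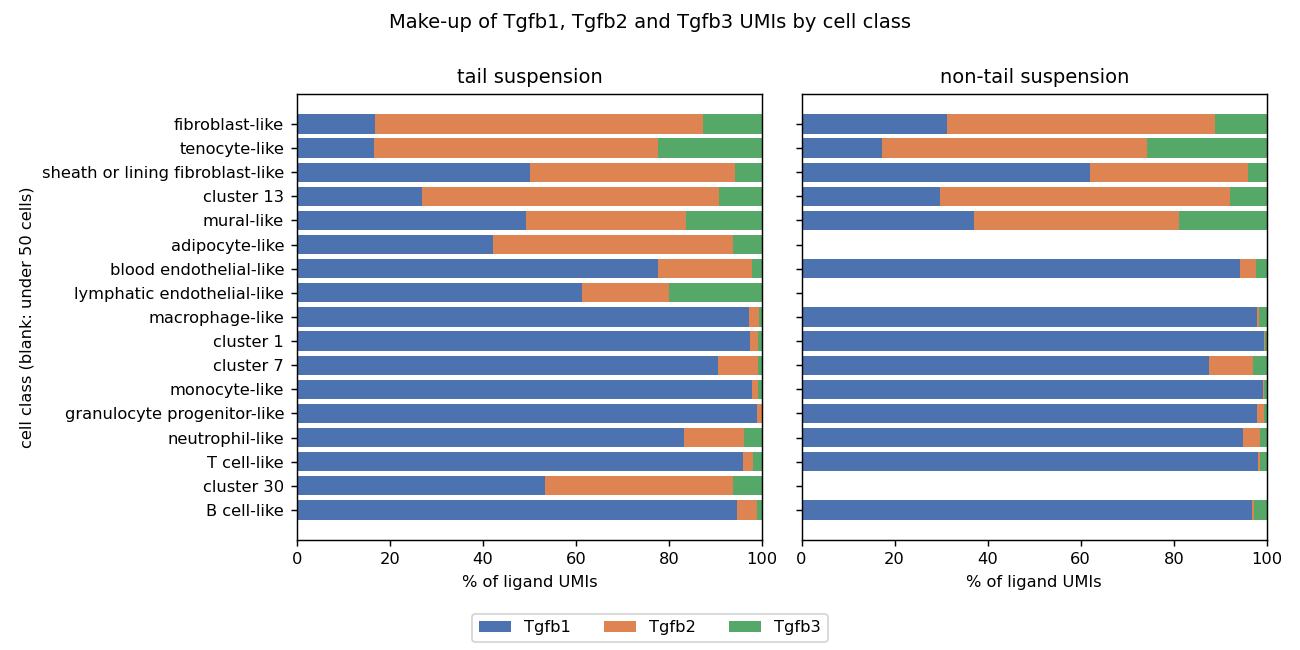
Percent of ligand UMIs from Tgfb1, Tgfb2 and Tgfb3 (horizontal axis) by cell class (rows), tail suspension on the left and non-tail suspension on the right; blank rows have under 50 cells. Tgfb1 fills 97.1% and 97.9% of the bar in macrophage-like cells, and Tgfb2 is the widest block in fibroblast-like and tenocyte-like cells of both libraries.

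The signalling receptors were found in every class. Tgfbr1, the type I receptor kinase, lay between 19.8 and 89.2 CPM over the classes with tail suspension, and all 17 pairs of classes next to each other in order had overlapping intervals. Without suspension the unnamed cluster 7, led by Ctsk, Fxyd2 and Ckb, stood above the rest at 117 CPM (104 to 131), followed by monocyte-like cells at 48.5 CPM (44.0 to 53.3). The kinds of cell in cluster 7 were not tested. Tgfbr2, the type II receptor that binds ligand, was highest in fibroblast-like cells with tail suspension (265 CPM), with the same level in lymphatic endothelial-like cells. It was highest in tenocyte-like cells without suspension (278 CPM, 271 to 284), above fibroblast-like cells (242 CPM, 233 to 252). Tgfbr3, betaglycan, was highest in stroma and endothelium. It was 338 CPM (325 to 352) in tenocyte-like cells with tail suspension and 193 CPM (187 to 198) without, 152 and 85.2 CPM in blood endothelial-like cells, and 7.82 and 1.45 CPM in monocyte-like cells. The 68 mast or basophil-like cells of the tail suspension library had 69.4 CPM (37.9 to 116) of Tgfbr3, from 14 UMIs.

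Ltbp1, which anchors latent TGF-beta in matrix, was 132 CPM (129 to 135) in fibroblast-like cells with tail suspension and 70.3 CPM (65.4 to 75.5) without. In tenocyte-like cells it was 122 CPM (114 to 130) with tail suspension and 160 CPM (155 to 166) without, so that the order of these classes differed between the libraries, with overlapping intervals in the tail suspension library. Sheath or lining fibroblast-like cells had only 13.8 and 5.34 CPM of Ltbp1. Ltbp2, a microfibril protein of elastic tissue, was 86.6 CPM (80.0 to 93.7) in tenocyte-like cells with tail suspension and 58.7 CPM (55.6 to 61.9) without, and 45.1 and 66.5 CPM in fibroblast-like cells.

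Tgfbi had its highest level in myeloid cells. Monocyte-like cells held 1080 CPM (1055 to 1105) with tail suspension and 1702 CPM (1675 to 1730) without, the unnamed cluster 1, led by Ccl17 and class II histocompatibility genes, 844 and 1196 CPM, and macrophage-like cells 765 and 660 CPM. The fibroblast lineage had 156 CPM (154 to 159) with tail suspension and 201 CPM (196 to 205) without. One small fibroblast-like cluster, cluster 25, led by Apod, Gpc3 and Ccl11, reached 792 CPM (702 to 891) in 110 cells with tail suspension and 1098 CPM (841 to 1407) in 7 cells without. B cell-like cells had 159 CPM of Tgfbi with tail suspension and 38.6 CPM without, 101% and 19.2% of the lineage level. By their highest level, 5 of the 9 genes belonged to a class of the fibroblast lineage in the tail suspension library and 5 in the non-tail suspension library. The share of all genes with their highest level there was not computed, so these counts have no background. Without suspension Tgfbr3 was highest in cluster 13 (239 CPM), which was unnamed and so outside the lineage.

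The comparison of tail suspension with non-tail suspension within the fibroblast lineage asks whether unloaded matrix cells carry a different set of TGF-beta components. Tgfbr1 and Tgfbr3 were higher with tail suspension by more than 1.5-fold (the size used as a call, with at least 100 UMIs over both libraries), Tgfb3 was lower by more than 1.5-fold, and the other 6 genes lay within it. Tgfbr1 was 46.7 CPM (45.4 to 48.1) with tail suspension and 30.1 CPM (28.3 to 31.9) without, a log2 ratio of 0.64 (0.54 to 0.73). Tgfbr3 was 291 CPM (288 to 295) and 187 CPM (183 to 191), a log2 ratio of 0.64 (0.60 to 0.68). For the ligand Tgfb3 the levels were 23.9 CPM (22.9 to 24.9) with tail suspension and 41.2 CPM (39.1 to 43.3) without, a log2 ratio of −0.79 (−0.88 to −0.69). Of 13422 genes with at least 100 UMIs in the lineage, 14.7% were higher and 13.2% lower by that fold, and 2 and 1 of the 9 genes are counts near that background.

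Among the genes within 1.5-fold, Tgfb2 was 125 CPM with tail suspension and 111 CPM without (log2 ratio 0.17, 0.12 to 0.22). Tgfb1 had a log2 ratio of −0.06, and its interval of −0.14 to 0.03 includes 0. Tgfbr2 was 210 and 254 CPM (−0.27, −0.31 to −0.24), Ltbp1 100.2 and 124 CPM (−0.30, −0.36 to −0.25), Ltbp2 44.9 and 59.2 CPM (−0.40, −0.47 to −0.32) and Tgfbi 156 and 201 CPM (−0.36, −0.40 to −0.32). These differences are larger than counting error and smaller than the called size. The median log2 ratio was −0.27 over the 9 genes and 0.02 over all genes measured in the lineage.

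**Figure D3:**
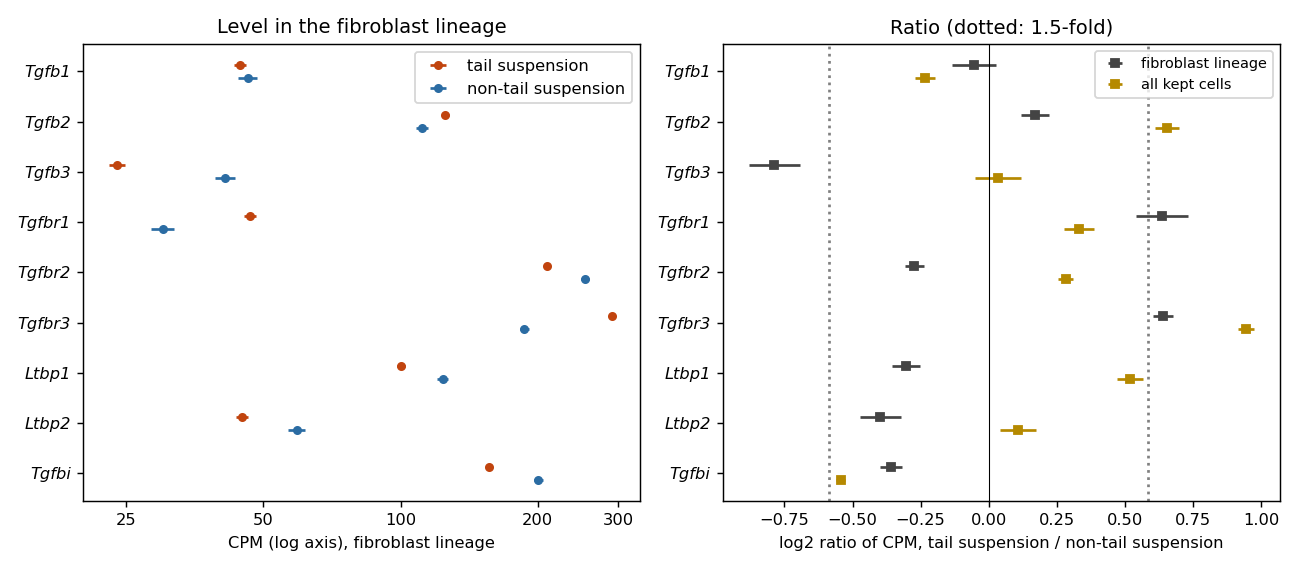
Left: level in the fibroblast lineage in CPM (log axis) for each gene, tail suspension and non-tail suspension. Right: log2 ratio between the libraries with tail suspension as numerator, in the lineage and in all kept cells; bars are exact 95% intervals for counting error and dotted lines mark 1.5-fold. Tgfbr1 and Tgfbr3 lie beyond the right line and Tgfb3 beyond the left one in the lineage, whereas over all kept cells Tgfb2 and Tgfbr3 lie beyond the right line.

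Within single clusters of the lineage several of these directions were different. In 5 clusters with at least 50 cells in both libraries, Tgfb2, Tgfbr1 and Tgfbr3 had a log2 ratio above 0 in every cluster. Cluster 11, led by Myoc, with 70 and the sheath cluster 12 with 75 non-tail suspension cells were at the low end. A ratio above 0 need not be larger than counting error. In the sheath cluster the 2 Tgfb2 level intervals, 57.7 to 63.8 and 42.4 to 60.7 CPM, overlapped. The log2 ratios ran from 0.20 to 0.46 for Tgfb2, from 0.30 to 0.80 for Tgfbr1 and from 0.09 to 0.73 for Tgfbr3. Of 8363 genes measured in all 5 clusters, 20.3% were above 0 in each of them, against 3 of the 9 genes. The log2 ratio averaged over the 5 clusters was past 1.5-fold for Ltbp1 alone (0.66), where 8.75% of genes were higher and 7.53% lower by that measure. Over the 3 clusters with at least 100 cells in both libraries, a limit applied after seeing the data, the mean was 0.56 for Ltbp1, under 1.5-fold, and past it for Tgfbr1 alone (0.65).

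Inside the clusters no Tgfb3 difference was larger than counting error, and the ratio was above 0 in 4 of 5. A lower level in a cluster is not excluded by these intervals. Its log2 ratios were 0.13 (−0.26 to 0.54) in cluster 2, 0.23 (−0.02 to 0.47) in cluster 3, 0.22 (−0.11 to 0.57) in cluster 9, −0.22 (−0.58 to 0.15) in cluster 11 and 0.39 (−0.37 to 1.25) in the sheath cluster, and every interval includes 0. The level of Tgfb3 was 63.3 CPM with tail suspension and 54.1 CPM without in cluster 3, and 19.1 and 17.5 CPM in cluster 2. Cluster 3 supplied 62.0% of lineage cells without suspension and 2.29% with it, and the lineage without cluster 3 gave a Tgfb3 log2 ratio of 0.19.

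Ltbp1 likewise turned. Over the whole lineage it was lower with tail suspension (−0.30), but it was higher in cluster 9, a fibroblast-like cluster led by Cxcl5, Fbn1 and Col1a2, at 96.2 CPM with tail suspension and 27.9 CPM without (log2 ratio 1.79, 1.56 to 2.02). In the sheath cluster it was 13.8 and 5.34 CPM (1.37, 0.58 to 2.30, from 349 and 13 UMIs), and in cluster 3 it was 134 and 162 CPM (−0.28, −0.44 to −0.12). Tgfbr2 split the clusters: 181 CPM with tail suspension and 97.1 CPM without in cluster 9 (0.90, 0.77 to 1.02), but 362 and 519 CPM in cluster 2 (−0.52, −0.59 to −0.44) and 190 and 283 CPM in cluster 3 (−0.58, −0.71 to −0.44). Tgfbi was higher in cluster 3, at 328 and 193 CPM (0.76, 0.65 to 0.87), and lower in the sheath cluster, at 59.9 and 136 CPM (−1.18). Tgfb1 was lower in cluster 2, at 24.1 and 40.6 CPM (−0.75, −1.02 to −0.48).

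Counted by cluster, 4 of the 9 genes (Tgfbr1, Tgfbr2, Tgfbr3 and Ltbp1) were higher past 1.5-fold in cluster 9, where 12.4% of genes were, and 0 were lower, where 12.9% of genes were. In cluster 3, Tgfbr1 and Tgfbi were higher (12.5% of genes) and 0 lower (13.9%). Cluster 2 had 0 higher (10.4%) and 1 lower, Tgfb1 (15.2%). In the sheath cluster Ltbp1 was higher (15.2%) and Tgfbi lower (15.5%), and cluster 11 had 0 in either direction (20.9% and 13.2%), both with under 100 non-tail suspension cells. Median depth per cell was lower with tail suspension in each of these clusters, for instance 16549 and 24604 UMIs in cluster 3 and 27990 and 41749 UMIs in cluster 9, and its part in the ratios was not tested.

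**Figure D4:**
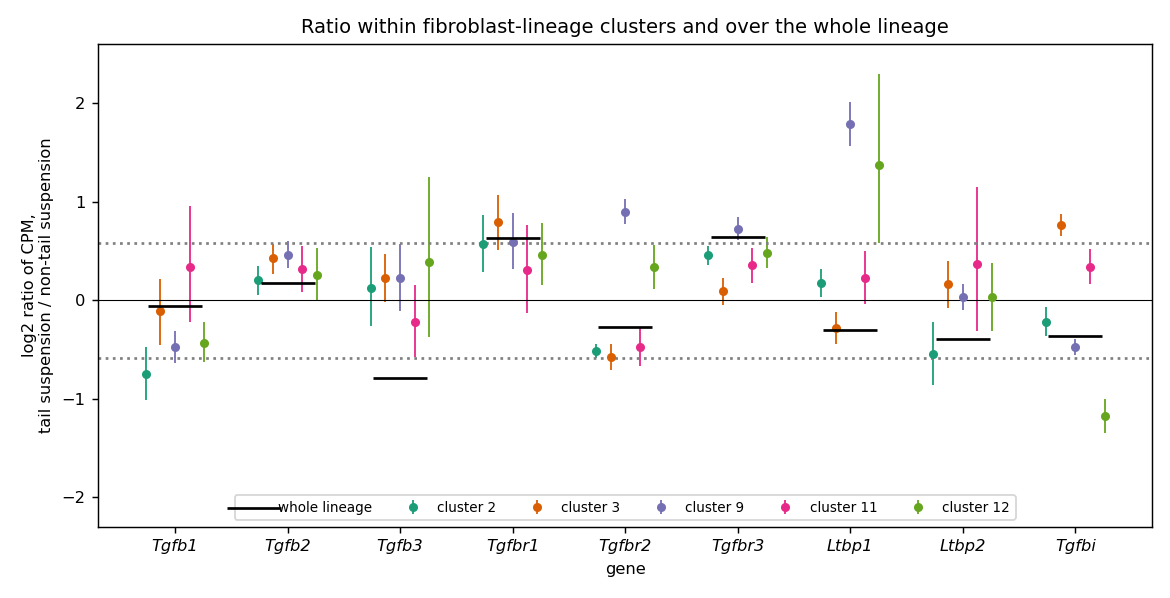
Log2 ratio between the libraries with tail suspension as numerator (vertical axis) for each gene in 5 fibroblast-lineage clusters (coloured points, exact 95% intervals for counting error) and over the whole lineage (black bars); dotted lines mark 1.5-fold. The black bar of Tgfb3 at −0.79 lies under all 5 of its clusters, and that of Ltbp1 at −0.30 lies under its 5 clusters as well, with cluster 9 at 1.79.

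By named class the fibroblast-like cells had 3 genes higher, Tgfbr1 (44.0 CPM with tail suspension, 26.2 CPM without), Tgfbr3 (317 and 183 CPM) and Ltbp1 (132 and 70.3 CPM), where 12.6% of genes were. Tgfb1 was lower there, at 34.9 and 57.5 CPM (log2 ratio −0.72, −0.85 to −0.59), where 16.9% of genes were. Cluster 2 held 2628 of the 4449 fibroblast-like cells with tail suspension and 194 of 424 without, and cluster 9 held 690 and 153, so that cluster 9 gave 20530708 of 63960023 UMIs of the class with tail suspension and 6343982 of 10771198 without. The Ltbp1 log2 ratio was 1.79 within cluster 9 and 0.17 within cluster 2. In tenocyte-like cells Tgfbr1 (54.96 and 31.1 CPM) and Tgfbr3 (338 and 193 CPM) were higher (14.0% of genes), and Tgfbr2 was lower, at 127 CPM with tail suspension and 278 CPM without (−1.12, −1.22 to −1.02), where 16.6% of genes were. These tenocyte-like cells were mostly cluster 17, led by Angptl7, Clu and Fmod, with tail suspension (620 of 766 cells) and mostly cluster 3 without (885 of 928 cells), and within cluster 3 the Tgfbr2 difference was smaller (−0.58). In the unnamed cluster 13, with 117 and 619 cells, Ltbp1 was 69.4 and 33.5 CPM (1.05, 0.80 to 1.29), and the log2 ratios of the other 8 genes lay between −0.52 and 0.58. Mural-like cells were shallow, at medians of 1877 and 1965 UMIs. Tgfbr1 (54.8 and 35.4 CPM, 118 and 29 UMIs) and Ltbp1 (71.5 and 18.3 CPM, 154 and 15 UMIs) were higher there (15.6%), and 0 of 7 measured genes lower (15.1%). The 2 Tgfbr1 level intervals, 45.3 to 65.6 and 23.7 to 50.8 CPM, overlapped. This class of 477 and 115 cells had 4 mural markers among its 50 leading genes. At resolution 2.0 the mural-like cluster had 10 such markers and only 119 and 37 cells. Whether the other cells were mural was not tested.

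In lymphocytes Tgfb1 was lower with tail suspension. T cell-like cells had 187 CPM (176 to 199) with tail suspension and 313 CPM (296 to 331) without, a log2 ratio of −0.74 (−0.86 to −0.63), where 13.5% of genes were lower past 1.5-fold. It was lower in each of the 4 T cell-like clusters, from −0.79 in cluster 4 (210 and 362 CPM) to −0.26 in cluster 8 (254 and 304 CPM), and in cluster 23 the interval included 0 (−0.71 to 0.10). Cluster 8 was led by Gzma, Ccl5 and Nkg7, cytotoxic genes that natural killer cells share, with 2 T cell markers among its first 10 genes. The corresponding cluster was unnamed at the lower clustering resolution and natural killer cell-like with doublets kept. Without cluster 8 the class had 173 and 317 CPM of Tgfb1 (−0.87, −1.01 to −0.74), an alternative chosen after seeing the data. In B cell-like cells Tgfb1 was 159 and 300 CPM (−0.92, −1.22 to −0.62, 161 and 218 UMIs), where 29.9% of genes were lower. Different cells filled this class too. At clustering resolution 2.0 a B cell-like cluster with Ms4a1 and Ighd among its leading genes held 336 tail suspension and 39 non-tail suspension cells. Another, with Vpreb3 and Hist1h1b among its leading genes, held 1 and 63. The part of this make-up in the B cell-like ratios was not tested. Tgfbi was called higher in T cell-like cells (78.9 and 49.9 CPM, 9.75% of genes) and in B cell-like cells (159 and 38.6 CPM, 19.2% of genes). In T cell-like cells that is 50.5% and 24.9% of the lineage level, beside 4.47% and 0.969% for Col1a1, and the part of free RNA was not tested.

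In myeloid cells Tgfbi was lower with tail suspension in monocyte-like cells (1080 and 1702 CPM, log2 ratio −0.66, −0.70 to −0.62), where 10.0% of genes were lower and 14.0% higher, with 0 of the 4 measured genes higher. At clustering resolution 2.0 a monocyte-like cluster led by Ms4a6c and Ms4a4c held 772 tail suspension and 245 non-tail suspension cells. Another, led by Ccl6 and Arg1, held 706 and 60, and another, led by H2-Ab1 and Cd74, held 208 and 1057. The part of such make-up in the monocyte-like ratio was not tested. Neutrophil-like cells had 136 CPM of Tgfbi with tail suspension and 308 CPM without (−1.18, −1.27 to −1.09), where 25.8% of genes were lower. Different clusters filled this class: clusters 10 and 20 held 664 and 440 of its 1426 tail suspension cells, and clusters 15, 21, 22 and 28 held 1127, 1764, 1004 and 1138 of its 5300 non-tail suspension cells. Within clusters 10, 15 and 21, which had at least 50 cells in both, the log2 ratio of Tgfbi was −0.55, −0.55 and −0.35, each under 1.5-fold. The clusters with fewer cells in a library went both ways. Tgfbi was higher with tail suspension in clusters 20 (328 and 292 CPM), 28 (412 and 377 CPM) and 22 (516 and 216 CPM). In cluster 22 the tail suspension level came from 6 UMIs. In cluster 24 Tgfbi was lower, at 23.2 and 130 CPM. Macrophage-like cells had Tgfbr2 at 161 and 104 CPM (0.62, 0.53 to 0.71) and Tgfbr3 at 8.74 and 1.86 CPM called higher, where 26.6% of genes were, and 0 of 5 measured genes lower (7.85%). The macrophage-like cells were mostly cluster 16 with tail suspension (1003 of 1123 cells) and mostly cluster 27 without (1172 of 1267 cells), and the Tgfbr2 ratio was 0.57 (0.31 to 0.85) in cluster 16 and 0.12 (−0.13 to 0.36) in cluster 27. Tgfbr3 was also called higher in neutrophil-like cells (14.1 and 4.61 CPM, 24.0% of genes). Its level there was 4.82% and 2.47% of its lineage level, beside 4.89% and 1.67% for Col1a1. In macrophage-like cells Tgfbr3 had 110 UMIs with tail suspension and 34 without. That was 2.9997% and 0.994% of its lineage level, beside 2.19% and 0.653% for Col1a1. The part of free RNA in these Tgfbr3 calls was not tested.

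Cluster 1 had Tgfbr2 higher, at 57.4 and 31.4 CPM (0.87, 0.60 to 1.15, 16.7% of genes), and 0 of 4 measured genes lower (7.8%). In cluster 7, whose cells had medians of 2052 and 17282 UMIs, Tgfb1 (161 and 34.9 CPM) and Tgfbi (925 and 322 CPM) were higher (31.5% of genes) and Tgfbr1 (48.2 and 117 CPM) and Tgfbr2 (83.9 and 155 CPM) lower (24.4%). At clustering resolution 2.0 an osteoclast-like cluster, with Ctsk, Ckb and Gpr183 among its leading genes, held 2 tail suspension and 51 non-tail suspension cells. Its median was 39451 UMIs. An unnamed cluster led by Fxyd2, Ctss and C3ar1 held 457 and 85 cells, at a median of 1959 UMIs. How the cells of cluster 7 divide between these was not tested, so its ratios may compare different kinds of cell.

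Over all kept cells, where the level also follows which classes were captured, Tgfb2 was 83.2 CPM (81.7 to 84.6) with tail suspension and 52.8 CPM (51.5 to 54.2) without, a log2 ratio of 0.65 (0.61 to 0.70). Tgfbr3 was 193 and 99.98 CPM (0.95, 0.91 to 0.98). These were the 2 genes called higher, where 22.0% of 15148 genes were, and 0 of 9 were lower, where 12.9% of genes were. Tgfbi came nearest on the lower side, at 307 and 448 CPM (−0.54, −0.56 to −0.53). The median log2 ratio over all genes was 0.13, so relative to it these 3 ratios shift down by that amount. With the class shares of the non-tail suspension library given to both, the log2 ratios became 0.46 for Tgfb2, 0.58 for Tgfbr3 and −0.22 for Tgfbi, and with the tail suspension shares 0.47, 0.72 and −0.31. Fewer cells of a type and less RNA per cell cannot be told apart in these pooled levels.

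The cells behind each gene's UMIs differed between the libraries. The fibroblast lineage supplied 31.8% (31.0 to 32.6) of Tgfb1 UMIs with tail suspension and 14.2% (13.6 to 14.9) without. For Tgfb2 its share was 92.7% and 65.6%, with another 32.1% from cluster 13 without suspension. It supplied 94.5% and 84.6% of Ltbp1 UMIs, 64.7% and 26.5% of Tgfbr1 UMIs and 31.4% and 14.0% of Tgfbi UMIs. Monocyte-like cells supplied 14.7% of Tgfbi UMIs with tail suspension and 28.8% without.

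To compare detection at equal depth, each cell was thinned to 2000 UMIs, which left out 379 of 6368 and 48 of 1427 lineage cells. Tgfbr3 was then seen in 45.4% (44.2 to 46.7) of lineage cells with tail suspension and 31.5% (29.0 to 34.0) without, and Tgfbr1 in 10.4% and 5.87%. Tgfb3 was seen in 5.61% and 7.90%. Before thinning Tgfbr3 was seen in 86.6% and 89.6%, in cells of median depth 12246 and 23747 UMIs. In thinned B cell-like cells Tgfbr3 was seen in 3.80% and 0% (0 of 94 cells). Tgfbr1 and Tgfbr2, whose proteins form one signalling complex, were seen together in 3.36% of thinned lineage cells with tail suspension, where independent detection gives 3.28%, and in 2.03% without, where it gives 2.10%.

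Across the 33 clusters with at least 50 cells over both libraries, the genes whose log2(CPM + 10) followed each member most closely were sought among 7178 genes with at least 50 CPM in a cluster. The points share 2 libraries and differ in depth, so the correlations are descriptive. Tgfb2 was most like Lhfp (r = 0.94), Nbl1 and Fndc1 (both 0.93), and Tgfb3 most like Ecm2 and Fndc1 (both 0.91) and Fxyd6 (0.90). Tgfbr3 was most like Amotl2, Serping1 and Osmr (all 0.97). Ltbp1 was most like Bicc1 (0.96), Tmem100 (0.95) and Kirrel (0.94), and the genes close to Ltbp2 included the matrix protease gene Mmp3 (0.93) and Ssc5d (0.91). Tgfb1 had Ppp6r1 (0.92), Cdc42se2 (0.89) and Ube2q1 (0.87), and Tgfbi had the lysosomal ceramidase gene Asah1 (0.81), Sirpa (0.78) and Ctsz (0.77). The genes close to Tgfbr1 included Pdxk and Slc49a4 (both 0.77), and Tgfbr2 was most like Mia3, Zbtb4 (both 0.83) and Tmem106b (0.81). Between the members, Tgfbr3 went with Ltbp1 and with Tgfb2 (both r = 0.88), Tgfb2 with Ltbp1 and with Tgfb3 (both 0.85), and Tgfb1 ran against Ltbp1 (−0.49) and Tgfb2 (−0.44).

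Other genes of the pathway in the fibroblast lineage were counted by role. Of 4 ligand-binding proteoglycans, 3 were lower past 1.5-fold and 0 higher, with a median log2 ratio of −0.90: Fmod was 305 CPM with tail suspension and 1024 CPM without (−1.75) and Bgn 2183 and 4724 CPM (−1.11), while Dcn was 10814 and 9618 CPM (0.17) and Aspn had a ratio of −0.69. Of 20 response genes, 10 were lower and 1 higher, with a median of −0.59. Cthrc1, a secreted protein of matrix-producing fibroblasts, was 216 and 1014 CPM (−2.23), and Acta2, smooth muscle actin, 15.3 and 48.8 CPM (−1.68). At the other end Inhba, the activin A subunit, was 244 and 137 CPM (0.83) and Fn1, fibronectin, 6090 and 4678 CPM (0.38). The tendon transcription factor Scx, a response gene on the list, was 14.8 and 33.5 CPM (−1.18). Fmod, Scx and the response gene Comp were also tenocyte markers, Dcn a fibroblast marker and Acta2 a mural marker in the naming lists. They thus helped decide which clusters formed the lineage, and only the members were left out of the variable genes used for clustering. The part of this in their levels and ratios, over the lineage and within clusters, was not tested.

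Of 15 measured genes of latency and activation, 2 were higher and 4 lower, with a median of −0.12. Itgb8, the integrin subunit that activates latent TGF-beta, was 33.4 and 19.1 CPM (0.81) and Furin, the protease that cleaves the propeptide, 114 and 69.9 CPM (0.71). Fbn2, a fibrillin, was 6.91 and 30.8 CPM (−2.16) and Nrros, a latent TGF-beta anchor of myeloid cells, 1.61 and 2.72 CPM (−0.76). Of 6 co-receptors and receptor regulators 1 was higher, Cd109, at 102 and 43.8 CPM (1.22), and 0 were lower. Vasn had a ratio of 0.43, and Eng and Acvrl1, better known from endothelium, −0.48 and −0.27. Of 12 signal transducers and inhibitors, 2 were higher and 2 lower, with a median of 0.10: the ubiquitin ligase gene Smurf1 (0.62) and the corepressor gene Tgif1 (0.61), and the feedback inhibitor gene Pmepa1 (624 and 1238 CPM, −0.99) and Smad3 (18.3 and 29.4 CPM, −0.68). These shares read against the same background of 14.7% higher and 13.2% lower.

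Averaged within the 5 clusters, fewer response genes stayed past the fold. By the mean of the cluster ratios, 3 of the 20 response genes were lower and 1 higher, with a median of −0.13, and 1 of the 4 proteoglycans was lower and 1 higher, where 7.53% of all genes were lower and 8.75% higher. Ccn2 (mean log2 ratio −0.91), Cthrc1 (−0.73) and Acta2 (−0.86) were below 0 in all 5 clusters, as were 20.4% of all genes. Postn, periostin, had a whole-lineage ratio of −0.27 but was above 0 in all 5 clusters (mean 0.92, from 0.25 to 2.05), and Aspn had a mean of 0.61, above 0 in 4 clusters, beside −0.69 over the lineage. Col1a1 was −1.58 over the lineage and −0.56 on average within clusters, and Scx −1.18 and −0.12. Cd109 kept its size, with a mean of 1.05 and a range of 0.68 to 1.60.

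**Figure D5:**
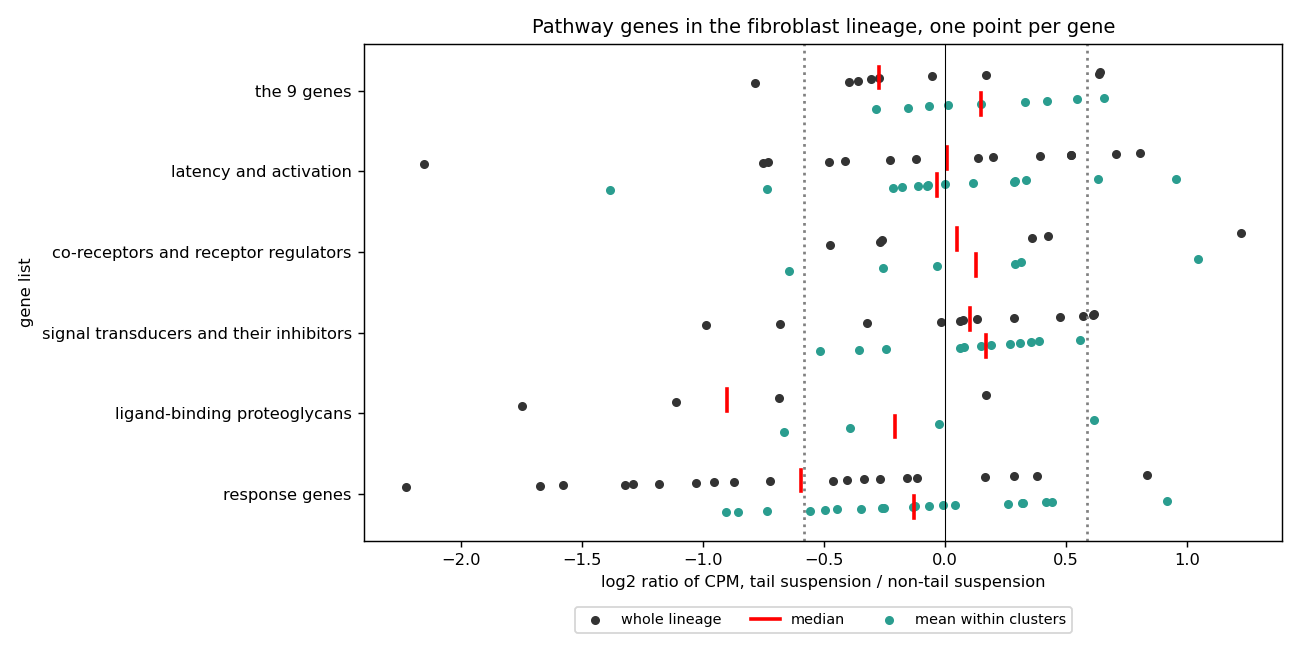
Log2 ratio between the libraries with tail suspension as numerator, in the fibroblast lineage (horizontal axis), 1 point per gene, for the 9 genes and 5 lists of other pathway genes; dark points are ratios over the whole lineage, green points means over the clusters with at least 50 cells in both libraries, red bars medians and dotted lines 1.5-fold. Nrros, measured over the lineage but in none of the 5 clusters, is not plotted, and without it the latency and activation list has 14 points and a whole-lineage median of 0.01. The median of the response genes is −0.59 over the whole lineage and −0.13 within clusters.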

How the data were processed

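The matrices deposited by the authors hold whole UMI counts for each gene in each barcode. GRCm38 and Cell Ranger 5.0.1 appear in the submitters' processing notes. Reads, alignment settings and any aggregation or depth equalisation are not given in the sources used here. Barcodes were kept if they had 300 or more genes and no more than 20% mitochondrial UMIs. Doublets were called with Scrublet in scanpy 1.11.5 at a score of 0.386 in both libraries, the automatic threshold of the tail suspension library. The automatic threshold of the other library, 0.776, lay above its highest score. This removed 492 (3.40%) of the tail suspension and 128 (1.17%) of the non-tail suspension cells, and doublets may remain.

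Both libraries were clustered together without integration (2000 variable genes without the 9 members, 30 principal components, 15 neighbours, Leiden resolution 1.0). Clusters were named "X-like" from marker lists. A name needed at least 3 markers among the 50 leading genes and more among the first 10 than any other class. UMIs were summed per class and library. CPM carry exact Poisson intervals, log2 ratios exact conditional binomial intervals and shares exact Clopper-Pearson intervals, all at 95% and for counting error only; PCR and cell sampling are not covered. A call needs a 1.5-fold difference and at least 100 UMIs over both libraries. The ratio calculation was tested on simulated data. Members and gene lists were chosen with earlier results of these data known. Of each pathway list the 2 highest and 2 lowest ratios are named, and Scx, Postn, Col1a1, Ccn2 and repeats of Aspn, Cd109, Cthrc1 and Acta2 for the cluster means were chosen after their values were seen. Some genes close to Ltbp2 and Tgfbr1 across clusters are not reported here.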

Additional observations from a re-analysis of the deposited data

Results flagged for a closer look

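With 1 library per condition, no group is large enough to show a sample far from the others. Some members differed in opposite directions, past 1.5-fold, between cell classes, and these differences between classes were not tested. Tgfb1 had a log2 ratio (with tail suspension as numerator) of 2.21 in cluster 7 and −0.92 in B cell-like cells. Tgfbr1 stood at 0.82 in tenocyte-like cells and −1.28 in cluster 7. Tgfbr2 stood at 0.87 in cluster 1 and −1.12 in tenocyte-like cells. Tgfbi stood at 2.04 in B cell-like cells and −1.18 in neutrophil-like cells. Cluster 7 had median depths of 2052 and 17282 UMIs, tail suspension and non-tail suspension, and B cell-like cells of the tail suspension library held Tgfbi at the level of the fibroblast lineage (159 and 156 CPM), beside Prg4, a sheath fibroblast gene, at 2093 CPM. At resolution 2.0 the B cell-like cells fell into a cluster of 336 and 39 cells and another of 1 and 63. The part of depth, of free RNA and of the make-up of cluster 7 and the B cell-like class in these values was not tested.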

How the results depend on the processing

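No paired analysis was possible because there was 1 library per condition. Of the 9 genes, 3 were past 1.5-fold in the fibroblast lineage. That number became 1 at Leiden resolution 0.5 (Tgfbr2, lower), 6 at resolution 2.0 (Tgfbr1 and Tgfbr3 higher; Tgfb3, Ltbp1, Ltbp2 and Tgfbi lower), 1 for the mean of ratios within clusters (Ltbp1, higher) 1 for that mean over clusters of at least 100 cells (Tgfbr1, higher) and 1 with cluster 13 counted in the lineage (Tgfbr1, higher). The last 2 settings and leaving out cluster 3 were chosen after seeing the data. The lower call of Tgfb3 turned to 0.22 at resolution 0.5, 0.15 for the mean within clusters, 0.19 for that over clusters of at least 100 cells and 0.19 without cluster 3. It was also lost, with the ratio still below 0, in cells thinned to 2000 UMIs (−0.45), for the mean over cells (−0.57) and with cluster 13 counted (−0.43). For the mean over cells Ltbp2 was called lower instead (−0.67). Tgfb3 was past 1.5-fold in 9 of the 16 alternatives. The lineage was a different set of cells at each resolution. At 0.5 a cluster led by Cxcl5, Mmp3 and Col1a1, with 981 and 1335 cells, was unnamed and so outside it. At 2.0 the unnamed clusters included those led by Col1a2, Fbn1 and Aspn (446 and 70 cells) and by Aspn, Angptl7 and Postn (494 and 8 cells). Tgfbr1 kept its direction in all 16 alternatives (0.45 to 0.85, past 1.5-fold in 13), and so did Tgfbr3 (0.34 to 0.76, past 1.5-fold in 12).

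Over all kept cells 2 genes were past 1.5-fold. The number was 6 in cells thinned to 2000 UMIs and 6 for the mean over cells, all higher (Tgfb2, Tgfb3, Tgfbr2, Tgfbr3, Ltbp1 and Ltbp2), and 1 with at least 1000 genes per cell (Tgfbr3). With median-of-ratios scaling it was 2, with Tgfbr3 higher and Tgfbi lower. Of the 9 genes, 5 had their highest level in the lineage in the tail suspension library, and 3 for the mean over cells, 3 in thinned cells and 3 at resolution 2.0. No share over all genes was computed for this count. The cause was not tested in any of these cases. Leaving out a replicate was not possible. Members with few UMIs, such as Tgfb3 in the sheath cluster (203 and 15 UMIs), are limited by depth.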
